A study of Mus musculus with 9 samples.

Results

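The regions described here were open-chromatin peaks of cultured mouse dendritic cells that were missing when the Polycomb protein Pcgf6 was overexpressed and present in every other condition. They were chosen from 4 deposited ATAC-seq peak lists, merged on chromosomes 1 to 19 and X. A merged region was a member where it overlapped a peak in the HP109, LMP8 and mi8 lists by at least 1 bp and no peak in the overexpression (OE) list. There were 27208 members, or 14% of 194733 merged regions, and they covered 6.92 Mb. They are called OE-absent regions below. Absence of a peak means that no peak was called, not that the DNA was closed.

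ATAC-seq measures open chromatin by letting a transposase cut and tag accessible DNA. The cells were grown from marrow of C57Bl/6 mice for 9 days in 20 ng/mL GM-CSF, a cytokine that drives marrow precursors towards dendritic cells and macrophages. All received retrovirus on day 2 and were sorted for the vector's human CD8 reporter together with CD11c, an integrin chain carried by dendritic cells and also by some macrophages. The vectors were mi8, the control for overexpression; OE, which carries Pcgf6 cDNA; LMP8, the control for knockdown; and HP109, a hairpin RNA against Pcgf6. Each vector had 2 libraries and 1 peak list behind which both stood, and 1 input library, from the mi8 culture, served all 4 lists. No value therefore has a spread between cultures, no test between vectors was possible, and fewer open cells cannot be told apart from less opening per cell in these bulk samples. The labels do not state the ages and numbers of the mice.

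Pcgf6 is the subunit that defines PRC1.6, a variant form of Polycomb repressive complex 1. Its partners include the DNA-binding proteins Mga, Max and E2f6, which recognise T-box, E-box and E2F sequences, and Rnf2, the enzyme that puts ubiquitin on histone H2A. The complex is best known for keeping germline genes silent in cells that are not germ cells. Dendritic cells depend on regulatory elements opened by factors such as PU.1 and Irf8, and they take up, process and present antigen, with cytokine genes induced on activation.

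Among 32619 start sites in the RefSeq promoter table (GRCm38.p6, the assembly of mm10), 605, or 1.85%, lay in an OE-absent region, at 567 genes. The following stretches lie before a start site and inside such a region. Each is written 5′ to 3′ on the gene's own strand, in lower case, with matches to a motif in capitals. Mlf1 and Oasl1 are shown because the whole promoter window lay within the member. Cx3cr1, Marco, Il12a and Ctsg are shown because they are immune genes whose start was in a member. Each of these pieces begins at the member's edge and ends at the base before the start site. Fcgr4 and Cxcr2 were chosen after their values were seen, as myeloid receptors with motif matches.
Mlf1 (chr3:67373847-67374096, plus strand): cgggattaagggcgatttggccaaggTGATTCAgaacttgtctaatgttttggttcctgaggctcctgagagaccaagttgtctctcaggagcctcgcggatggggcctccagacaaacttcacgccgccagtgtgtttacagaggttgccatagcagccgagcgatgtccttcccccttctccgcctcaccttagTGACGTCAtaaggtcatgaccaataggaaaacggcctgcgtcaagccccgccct
Oasl1 (chr5:114922990-114923239, plus strand): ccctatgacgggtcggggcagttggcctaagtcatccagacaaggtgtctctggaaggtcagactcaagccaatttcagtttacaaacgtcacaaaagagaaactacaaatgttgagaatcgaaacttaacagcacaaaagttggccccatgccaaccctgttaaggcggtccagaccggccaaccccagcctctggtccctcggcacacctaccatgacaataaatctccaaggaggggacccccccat
Cx3cr1 (chr9:120068297-120068511, minus strand): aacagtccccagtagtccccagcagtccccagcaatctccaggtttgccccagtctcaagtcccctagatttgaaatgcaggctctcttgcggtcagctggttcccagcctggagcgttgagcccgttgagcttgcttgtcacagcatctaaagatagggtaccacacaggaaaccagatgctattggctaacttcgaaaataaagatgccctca
Marco (chr1:120505025-120505063, minus strand): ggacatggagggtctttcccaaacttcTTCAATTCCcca
Il12a (chr3:68691198-68691423, plus strand): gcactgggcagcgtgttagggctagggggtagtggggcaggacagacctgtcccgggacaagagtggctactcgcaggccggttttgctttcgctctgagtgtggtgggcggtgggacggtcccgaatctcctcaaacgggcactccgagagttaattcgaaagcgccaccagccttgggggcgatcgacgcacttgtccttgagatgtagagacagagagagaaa
Ctsg (chr14:56102575-56102686, minus strand): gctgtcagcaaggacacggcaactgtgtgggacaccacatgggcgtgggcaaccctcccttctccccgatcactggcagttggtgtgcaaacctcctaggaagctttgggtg
Fcgr4 (chr1:171018713-171018925, plus strand): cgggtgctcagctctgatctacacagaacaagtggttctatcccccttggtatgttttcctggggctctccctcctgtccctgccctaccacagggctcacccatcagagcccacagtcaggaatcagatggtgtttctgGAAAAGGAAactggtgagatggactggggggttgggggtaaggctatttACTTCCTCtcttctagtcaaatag
Cxcr2 (chr1:74153744-74153993, plus strand): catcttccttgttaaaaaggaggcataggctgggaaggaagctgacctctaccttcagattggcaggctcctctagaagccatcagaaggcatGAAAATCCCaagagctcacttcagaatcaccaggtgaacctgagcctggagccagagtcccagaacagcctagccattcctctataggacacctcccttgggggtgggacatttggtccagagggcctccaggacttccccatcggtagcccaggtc
The capitals mark AP-1 (TGANTCA) and CRE (TGACGTCA) in Mlf1. They mark the PU.1-IRF composite (GGAANNGAA) in Marco, the paired GAA pattern (GAAANNGAA) and PU.1 (GAGGAAGT) in Fcgr4, and NF-kB (GGGANTTTC) in Cxcr2. Both strands were searched for 14 patterns, so a match may read as the reverse complement. The paired GAA, PU.1 and composite patterns share the letters GAA or GGAA and can overlap. A match is a description and not a bound site.

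The OE-absent regions were 22.9% of the 118858 regions with a peak in HP109, LMP8 and mi8 (exact 95% interval 22.7% to 23.1%). Those 118858 are called shared regions below, and the interval, like others in the text, covers counting error alone. The equivalent share was 5.68% for regions missing from LMP8 alone, 0.817% for HP109 alone and 0.592% for mi8 alone. There were 4.93 times as many OE-absent regions as regions missing from LMP8 alone. These shares are what the rule chose and are given as a description. On single chromosomes the OE-absent share of shared regions ran from 21.3% on chromosome 3 to 25.1% on chromosome 11.

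List length ran in the reverse order of these shares, and depth did not follow them. The OE list was the shortest, with 111488 peaks, against 140716 for LMP8, 170077 for HP109 and 170946 for mi8. It was not the shallowest: the commonest background under a summit, which follows read depth, was 2.00 reads in OE, 1.95 in mi8, 1.42 in LMP8 and 1.36 in HP109. With each list held to its strongest 111488 peaks, 9026 OE-absent regions were left, 10.2% of the shared regions. The share for LMP8 alone was then 4.62%, for HP109 alone 3.35% and for mi8 alone 2.72%. The part of library quality in the result was not tested.

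Most OE-absent regions were narrow and modest peaks. Their median width was 227 bp (quartiles 186 and 291, widest 2987), against 394 bp for the 91650 regions in all 4 lists, and 26126 (96.0%) held a single peak in each of the 3 lists. The −log10 q, the authors' measure of how far a summit rises above background, had a median of 9.08 in HP109 (quartiles 5.97 and 13.8). It was 6.29 in LMP8 (4.47 and 9.05) and 9.89 in mi8 (6.61 and 14.6). Regions in all 4 lists stood higher, with medians of 32.7, 18.8, 33.0 and, in OE, 18.6. Regions missing from another list alone were weaker still than the OE-absent ones. Their mi8 median was 7.50 where LMP8 was the missing list and 7.17 where HP109 was. Where mi8 was the missing list, the HP109 median was 6.63. In OE-absent regions the HP109 and mi8 summits were a median of 20 bp apart. The distance was 16 bp in regions of all 4 lists and 21 bp in regions missing from LMP8 alone. No distance is given for LMP8 summits, and the rule already asked for peaks of both lists in the same merged region.

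The share of shared regions that OE lacked fell with peak strength. Where the mi8 −log10 q was under 5, 71.9% were absent from OE. The share was 60.0% between 5 and 10, 35.0% between 10 and 20 and 9.57% between 20 and 40. At 40 or above it was 0.389%, or 147 of 37742 regions. The regions missing from LMP8 alone gave 48.2%, 28.3%, 6.88% and 0.306% in the same classes, and 0 of 37595 in the top class, where the exact upper limit was 0.00981%. In each class the OE share was above the LMP8 share.

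**Figure D1:**
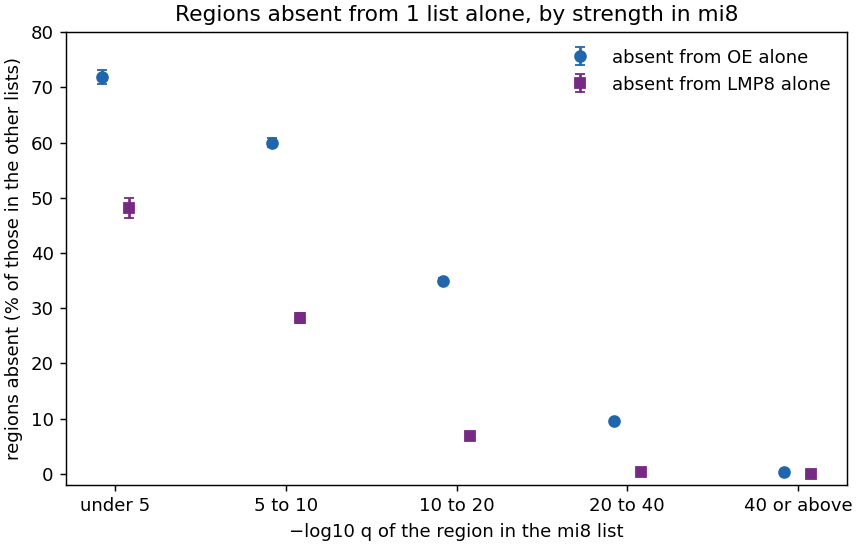
Share of regions missing from OE alone (circles) and from LMP8 alone (squares), as a percentage of the regions in the other lists, by the −log10 q of the region in mi8. Bars are exact 95% intervals for counting error. OE falls from 71.9% to 0.389% and LMP8 from 48.2% to 0.

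By the weakest of the 3 lists, 12147 OE-absent regions (44.6%) had a −log10 q under 5, 11351 had 5 to 10, 3461 had 10 to 20 and 249 had 20 or above. The strongest class was the widest, with a median of 335 bp against 214 bp in the weakest.

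The size of the gap in OE was read from the pileup, the number of reads stacked at a summit. It was recovered as a whole number for 100% of peaks in each list (tolerance 0.001 in −log10 p). At the local mi8 background, scaled to OE depth by 1.03, an OE summit needed a median of 8 reads (highest 30) to reach 3.17, the lowest −log10 p in the authors' deposited table of OE peaks. The members' summits held medians of 16 reads in HP109, 13 in LMP8 and 19 in mi8. The mi8 pileup was a median of 2.19 times what OE needed (quartiles 1.80 and 2.83). It was at least 2 times the need in 16842 members (61.9%) and at least 4 times in 1214 (4.46%). A summit above the need could still be uncalled, since a peak also has to reach a minimum length. With 3.79 as the limit, the median −log10 p of the weakest 1% of OE peaks, the median ratio was 1.97. The OE background was within 5% of the scaled mi8 background in 66.0% of regions in all 4 lists.

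Where OE did have a peak, its summit was lower than in mi8 at the median over all such regions, and not among the weakest. Over the 91650 regions in all 4 lists, the depth-scaled OE pileup was a median of 0.756 of the mi8 pileup (quartiles 0.595 and 0.918), against 0.871 for LMP8 and 1.32 for HP109. By mi8 −log10 q the OE median was 1.15 under 5 (1504 regions), 0.912 from 5 to 10, 0.738 from 10 to 20, 0.660 from 20 to 40 and 0.782 above. The weak classes hold only those regions that OE also called. Regions of all 4 lists with the members' usual mi8 pileup, 15 to 25 reads, gave 0.810 for OE over 17313 regions, 0.952 for LMP8 and 1.35 for HP109. In the OE-absent regions the LMP8 ratio was 0.941 and the HP109 ratio 1.20. Both of these ratios cover all members, of any mi8 pileup, and rest on lists that the rule used, so they are a description. The control for HP109 is LMP8 and not mi8. HP109 and OE are each set against mi8 here, so these ratios share their denominator.

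The 12 strongest members, by the weakest of their 3 −log10 q values, lay in or near genes of varied function. The first was inside Myo1e, a class I myosin motor, at chr9:70328168-70328753, with −log10 q of 52.2 in HP109, 40.7 in LMP8 and 55.6 in mi8. Its summits held 53, 40 and 56 reads where an OE summit needed 8. The nearest OE peak was 9.25 kb away.

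The second lay at chr10:17565286-17565700 with values of 48.2, 36.5 and 46.0 in the same order. Its nearest gene was Cited2, a transcriptional co-regulator that binds CBP and p300, at 158 kb, beyond the 100 kb used for assignment. Tnfaip3 encodes A20, a ubiquitin-editing brake on NF-kB, and a member 58.9 kb from it (chr10:18941461-18941988) had 32.7, 37.6 and 48.1. These regions were well above the calling limit in all 3 lists.

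Inside Ifi204, an interferon-inducible gene of the p200 family of DNA sensors, the member at chr1:173763115-173763433 had −log10 q of 33.8, 36.3 and 51.1. An OE peak lay 384 bp away. The member inside Gcnt1, which makes branched O-glycans on cell-surface proteins, had 46.7, 31.9 and 67.9 (chr19:17339605-17339931). Its mi8 pileup of 64 reads was the highest of all members relative to the need, at 8.23 times.

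The other named regions were inside Lipc, Mtus1, Gng2 and Tpst1, 18.3 kb from Ift57, 49.3 kb from Lrrc28 and 16.9 kb from Metrnl. Across the 12, summits held 34 to 53 reads in HP109, 34 to 40 in LMP8 and 41 to 66 in mi8, and OE needed 8 to 13.

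**Figure D2:**
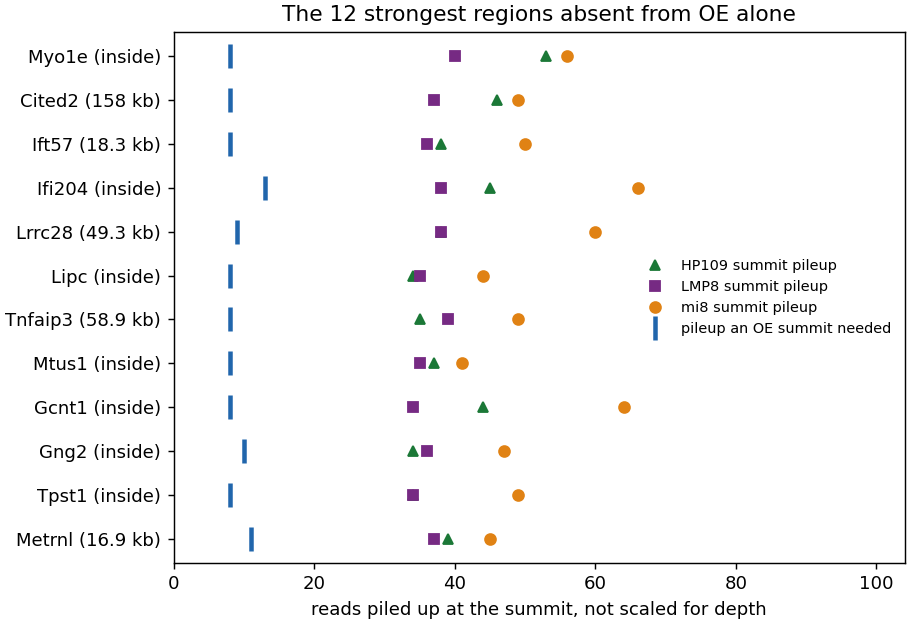
Reads at the summit of the 12 strongest OE-absent regions in HP109 (triangles), LMP8 (squares) and mi8 (circles), named by the nearest gene and its distance. Blue bars give the reads that an OE summit needed, 8 to 13, and every summit lies to their right at 34 reads or more; at Lrrc28 and Tpst1 the triangle is hidden by the square at the same value.

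Close to the edge of the rule, the values were ordinary. The members closest to an OE peak were 783 bp from Mthfs and 9.67 kb from Map7d2, each with a gap of 1 bp. Their −log10 q values in HP109, LMP8 and mi8 were 5.68, 5.36 and 5.75 at the first and 7.45, 4.87 and 7.60 at the second. Just outside the rule, OE had a peak of −log10 q 1.39 on 12 reads at a region in Npas2 with 23.7, 24.5 and 32.1 in the other lists and 49 reads in mi8. Another such OE peak was in Tram1, where the other lists had 11.7, 1.55 and 5.99. In 277 regions of all 4 lists (0.302%) the OE −log10 q was under 2.

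The OE-absent regions were seldom isolated from OE peaks. The median distance to the nearest OE peak was 2.34 kb (quartiles 0.713 and 6.70), against 3.11 kb from LMP8-missing regions to the nearest LMP8 peak. An OE peak lay within 250 bp of 2352 members (8.64%) and within 1000 bp of 8595 (31.6%). At the other end, 608 members (2.23%) were more than 50 kb from any OE peak.

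The members were mostly away from gene ends. Of the 27208, 2504 (9.20%, interval 8.86% to 9.55%) lay within 1000 bp of either end of a RefSeq protein-coding gene. A further 50.1% were inside a gene, 33.8% outside with a gene within 100 kb, and 6.94% had none so close. Both ends were used because strand was known for 17274 of 21631 genes, and exons and introns were not told apart. Regions in all 4 lists were at a gene end in 17.0% of cases, or 11.04% after weighting to the members' mi8 strength. LMP8-missing regions were at a gene end in 6.31%, or 5.62% with the same weighting.

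Read the other way, 13.9% of shared regions at gene ends were OE-absent, against 24.5% inside genes. Shared regions at gene ends were also stronger, with a median mi8 −log10 q of 44.0 against 21.8. With strength weighted alike, the absent share was 20.6% at gene ends, 22.8% inside genes, 23.5% within 100 kb and 24.5% beyond. Most of the difference by position thus went together with peak strength.

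**Figure D3:**
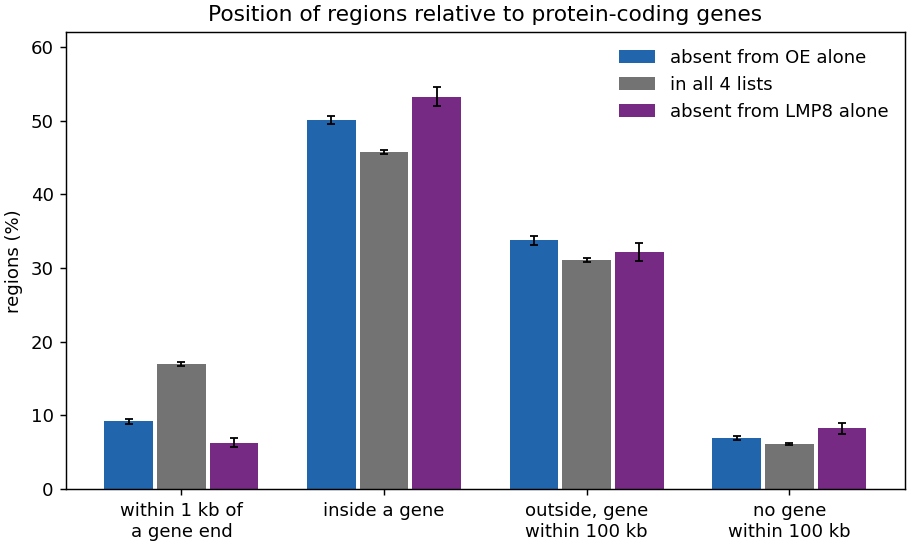
Position of OE-absent regions (blue), regions in all 4 lists (grey) and LMP8-missing regions (purple) relative to RefSeq protein-coding genes, as a percentage of each set with exact 95% intervals for counting error. Gene ends hold 9.20%, 17.0% and 6.31% of the 3 sets.

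At the gene ends, 2481 of 21631 protein-coding genes (11.5%) had an OE-absent region. They were 18.4% of the 13465 genes with a shared region at an end. Of the 2481, 784 (31.6%) had no OE region at either end, and the rest kept one. Strand was known for 1928: the member was at the start of 1328, at the far end of 574 and at both in 26. No such split is given for all shared regions at gene ends, so these counts show no preference of members for starts.

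The strongest of these was at Lmo2, a LIM-domain regulator of blood stem cells and of blood vessel formation, at chr2:103958203-103958536. Its −log10 q was 32.1 in HP109, 31.0 in LMP8 and 38.6 in mi8. Map3k1, a kinase upstream of JNK, had a member across its start with 43.7, 23.3 and 31.0 and no OE region at either end. The member at the start of Ctsk, the collagen-degrading protease cathepsin K, had 37.7, 23.2 and 25.8. An OE peak lay 0.443 kb from the Ctsk member, and Ctsk kept an OE region at an end.

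Mlf1, whose promoter is printed above, had −log10 q of 52.6 in HP109, 22.2 in LMP8 and 50.1 in mi8. Its nearest OE peak was 21.2 kb away. Cx3cr1, the receptor for fractalkine on monocytes and their descendants, had 36.3, 20.7 and 42.6 at its start. An OE peak lay 0.357 kb from that member, so the OE list still held an opening next to it.

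Among signalling and secreted proteins, P2ry10, a lysophospholipid receptor, had 30.7, 23.2 and 30.8, with an OE peak 0.42 kb away. Rnase6, an antimicrobial ribonuclease, had 49.5, 23.2 and 63.9 beyond its far end and no OE region at either end. Nos3, the endothelial nitric oxide synthase, shares 1 member with its neighbour Atg9b, an autophagy gene, with 31.4, 22.8 and 49.8. Chst13, a chondroitin sulfotransferase, had 44.0, 21.1 and 26.1 at its start, 44.0 kb from the closest OE peak. Gpr132, a G protein-coupled receptor of myeloid and lymphoid cells, had 19.9, 21.5 and 19.8.

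The other named genes with strong members at an end were Gm40011, Gm8369, 3300002I08Rik, Bmp8a, Ap2s1, Arap3, Gm4832, Ccl7, Fbxw10, Dlx4, Cuedc1 and Mrps23 (1 region for both), Fam20a, Hax1, Fbxw17, Gm6583, Gsg1, Mtfr1l and Rnf167.

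Of 345 genes in 17 fixed lists of pathways and cell markers, 60 (17.4%) had an OE-absent region at an end, against 11.5% of all protein-coding genes. Both shares include genes with no shared region at an end. Of the 13465 protein-coding genes with one, 18.4% had an OE-absent region at an end. No such share is given for the lists together. Regions were also assigned to the nearest gene within 100 kb, where 22.7% of 111343 shared regions were OE-absent. For each list that share is given with the share among all such regions of the same mi8 strength. Regions of 1 gene are not independent, so the intervals are too narrow.

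Cytokines and chemokines had 60 OE-absent regions among 218 shared ones, 27.5% against 18.3% at like strength. A member was at an end of 7 of 23 genes, and 4 of these, Ccl7, Il27, Il12a and Cxcl9, had no OE region at either end. Ccl7, a monocyte chemoattractant, had −log10 q of 22.7 in HP109, 27.0 in LMP8 and 36.8 in mi8. Il27, which encodes the p28 chain of interleukin-27, had 15.02, 11.5 and 24.03. Il12a, the p35 chain of interleukin-12, had 9.96, 8.89 and 7.68 at its start. Cxcl9, a T cell attractant induced by interferon gamma, had all 4 of its shared regions absent from OE. Il12b, the p40 chain, had 5 of 21 absent, and Il10, an anti-inflammatory cytokine, had 4 of 13.

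Interferon-stimulated genes had 29 of 131 regions absent, 22.1% against 18.8%. With an OE peak within 1000 bp counted as present, 13 of 131 were absent, 9.92% against 12.7%, so the side turned. At the start of Oasl1, an oligoadenylate synthetase-like inhibitor of Irf7 translation, the member had 8.94 in HP109, 26.4 in LMP8 and 49.2 in mi8, with an OE peak 667 bp away. HP109 was the lowest of the 3. Oas1a had 8.79, 6.40 and 38.8, with an OE peak 126 bp away. Ifih1 (the RNA sensor MDA5) and Zbp1 each had a member at an end too. Oasl1, Oas1a, Ifih1 and Zbp1 all kept an OE region at an end.

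Unlike the cytokine list, the costimulation, antigen presentation and Toll-like receptor lists were near or below their matched shares. They kept their side in 5, 4 and 3 of 7 alternatives, in that order. Costimulation and maturation genes had 31 of 210 regions absent, 14.8% against 18.1%. Antigen presentation genes had 33 of 151, 21.9% against 21.1%, with members at an end of H2-Aa, H2-Ab1 and Ciita. Ciita, the master regulator of MHC class II, had 22.0, 7.57 and 16.9. Toll-like receptor and NF-kB genes had 55 of 305, 18.0% against 18.5%. Tlr9, the sensor of unmethylated CpG DNA, had 25.7, 18.0 and 35.7 at its far end.

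Glycolysis and HIF genes had the lowest share of the 17 lists, with 38 of 279 regions absent, 13.6% against 20.4%. Members lay at an end of Pfkp, Aldoa and Gapdh, which encode glycolytic enzymes, and all 3 genes kept an OE region at an end. At Pfkp that was not the end with the member, whose nearest OE peak was 2.72 kb away. Pdk1, the kinase that blocks pyruvate dehydrogenase, went the other way with 5 of 9 absent.

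All 20 dendritic cell lineage genes had a shared region and an OE region at an end, and 0 had an OE-absent one there. A shared region and an OE region were also at an end of all 22 PRC1.6 and Pcgf genes and all 21 cell cycle genes. The count is therefore no check of the labelled cell type. Within 100 kb the dendritic cell lineage genes had 63 of 322 regions absent, 19.6% against 18.3%. Irf8, which specifies a main subset of dendritic cells, had 8 of 20, the strongest 75.4 kb away with 27.7, 19.5 and 28.7. Spi1, which encodes PU.1, had an internal member with 14.8, 14.4 and 21.8.

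Markers of other myeloid cells had larger shares as lists, with wide differences between genes. Macrophage markers had 49 of 171 regions absent, 28.7% against 21.2%. A shared region was at an end of 15 of 18 of these genes and an OE region at an end of 14. Mrc1, the mannose receptor, had 11 of 27 absent and Mertk, a receptor for apoptotic cells, 10 of 21, the most in the list. Of the Mrc1 members, 8 were neighbours with no OE peak between them. Mrc1 and Mertk thus held a large part of the 49, and the share of the list without them is not given. Other macrophage markers had few: Cd163 had 2 of 14 absent, Adgre1 2 of 9, Fcgr1 1 of 8 and Lyz2 0 of 4. Marco, a scavenger receptor, had 18.7, 12.8 and 17.7 at its start and no OE region at either end.

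Granulocyte and mast cell markers had 27 of 70 absent, 38.6% against 26.8%, the highest share of the lists. A shared region was at an end of 9 of 21 genes and an OE region at an end of 5. S100a9, a calgranulin of neutrophils, had 21.1, 16.7 and 23.9 with no OE peak for 16.2 kb, and S100a8 beside it had 4 of 5 regions absent. At the start of Ctsg, the neutrophil protease cathepsin G, the member had 6.63, 7.24 and 11.3, and OE had no peak for 65.3 kb. Gata2, a factor of mast cells and stem cells, had 7 of 9 absent, the most in the list. In contrast, Ltf had 1 of 9 absent, Mpo 0 of 2 and Cpa3 0 of 2. All samples were sorted on CD11c. The share of neutrophils and mast cells in each sorted sample, and its part in the result, was not tested.

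Marker lists of cells outside the myeloid lineage were mixed. Lymphoid and plasmacytoid markers had 22 of 88 absent, 25% against 25.6%, and stromal markers 31 of 113, 27.4% against 26.1%. Erythroid and megakaryocyte markers had 9 of 49, 18.4% against 24.9%.

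Among direct interests of a Polycomb study, genes of PRC1.6 and its Pcgf relatives had 34 of 138 absent, 24.6% against 20.8%. Rybp, a subunit of variant PRC1, held 13 of these 34. The single member assigned to Pcgf6 itself, at chr19:47034981-47035248 inside the gene, had 19.1, 14.7 and 17.9, with an OE peak 298 bp away. Vector DNA with the Pcgf6 cDNA can give reads on exons, and whether this member is exonic was not examined. Germline genes had 16 of 55 absent, 29.1% against 25.4%. The side turned in 3 of 7 alternatives, among them 16.4% against 17.1% with the 1000 bp margin and 9.76% against 12.2% with equal list lengths. Only 8 of 22 had a shared region at an end, and 1, the meiotic Spo11, had an OE-absent one. Developmental Polycomb targets had 29 of 80 absent, 36.3% against 39.4%, and their shared regions were weak, with a median mi8 −log10 q of 12.04. Cell cycle genes had 54 of 251 absent, 21.5% against 21.5%, and ubiquitous promoters 23 of 117, 19.7% against 20.6%.

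**Figure D4:**
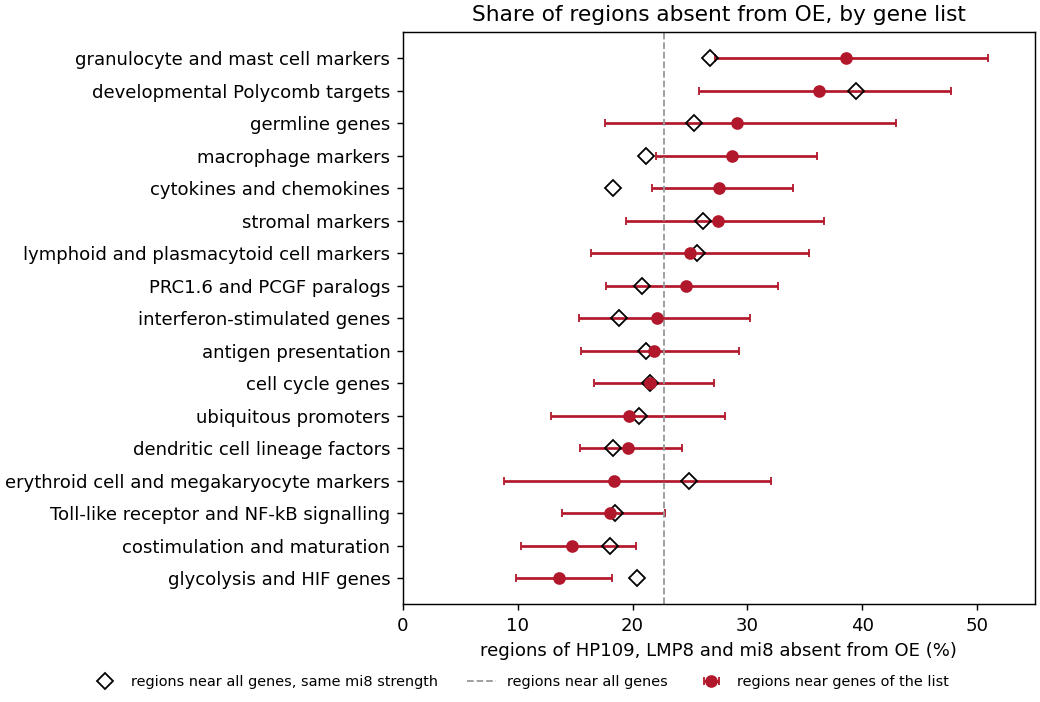
Share of shared regions that were OE-absent for each gene list (red, exact 95% interval for counting error), beside the share among regions of all genes at the same mi8 strength (open diamonds) and among regions of all genes (dashed line, 22.7%). Granulocyte and mast cell markers are highest at 38.6%, and glycolysis and HIF genes lowest at 13.6%.

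Spread over single genes, 9783 of 16615 genes with a shared region (58.9%) had at least 1 OE-absent region. Among the 4503 genes with at least 8 shared regions, the median absent share was 22.2%. It was over 50% in 103 genes, and 261 had none. The highest, at 7 of 9, were Gata2, Klk15 and Krt80.

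Some members stood in runs, defined as consecutive shared regions that were all absent from OE, with no OE peak between them. Of the members, 16104 stood alone, and 535 lay in 94 runs of 5 or more. The longest run held 14 members over 34.7 kb, at chr7:90201877-90236589, from the last part of Picalm, a clathrin assembly gene, into the far part of Ccdc83. HP109 had 25 peaks there, LMP8 25, mi8 22 and OE 0, which the definition of a run requires. In the 40 kb on either side together they had 17, 18, 17 and 5.

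The strongest member of that run lay 3.18 kb beyond the end of Picalm and was 2391 bp wide. It had −log10 q of 58.7 in HP109, 29.7 in LMP8 and 41.2 in mi8. Before it came a member of 2006 bp with 46.9, 18.8 and 29.5, and after it one of 1155 bp with 27.4, 23.2 and 32.1. These are wide for the set, where the median was 227 bp. The closest OE peaks were 1.32 kb to the left and 21.4 kb to the right. With equal list lengths, a setting that leaves the OE list whole, 5 of the 14 remained.

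**Figure D5:**
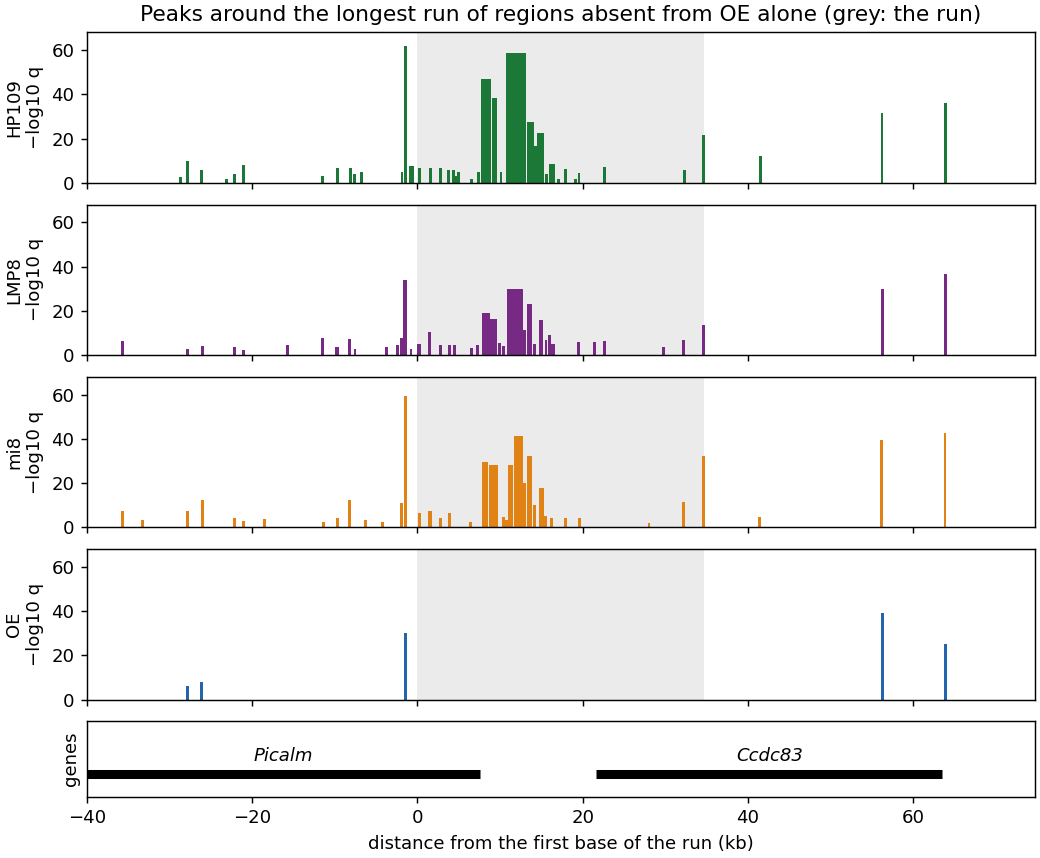
Peaks of HP109, LMP8, mi8 and OE around the longest run (grey), as −log10 q against the distance from the first base of the run in kb, with gene spans below. Within the run of 34.7 kb the upper 3 panels have 25, 25 and 22 peaks. The OE panel has 0, as the definition of a run requires.

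The next runs were shorter. Atp2b1, a plasma membrane calcium pump, held 12 members over 21.2 kb, with HP109 −log10 q up to 40.4, LMP8 up to 11.6 and mi8 up to 30.1. A run of 9 lay at Nup107 and Rap1b and one of 9 over 32.7 kb within Cd44, the hyaluronan receptor. Runs of 8 were at Ptp4a3, Acoxl and Mrc1. In the Mrc1 run the strongest member, at chr2:14323154-14323536, had 39.1, 21.9 and 23.4, 17.0 kb from the closest OE peak.

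By gene span with 10 kb on either side, Lpp, a LIM-domain protein of focal adhesions, held the most members, 29 of 97 shared regions (29.9%). Cd44 held 27 of 43 (62.8%) in a much shorter span, 24.4 per 100 kb against 4.68 in Lpp, and OE still had 18 regions there. Atp2b1 held 22 of 42 (52.4%) and Tenm4, a teneurin, 24 of 53 (45.3%). Foxp1, a forkhead repressor, held 24 of 75, the same count as Asap1. The list of 10 was completed by Sh3kbp1 (25 of 65), Arhgap26 (24 of 85), Osbpl8 (22 of 52) and Creb5 (21 of 73). Of the 10 genes, Cd44 and Atp2b1 alone had more OE-absent regions than regions kept.

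The promoters in OE-absent regions had fewer CpG sites than those in regions of all 4 lists. The window ran from 250 bases before to 50 after a start site. The 605 windows in members had a median of 14 CpG sites and 59.0% GC, against 21 and 61.3% for 13001 windows in regions of all 4 lists and 4 and 48.0% for 18401 in no region. Weighted to the members' mi8 strength, the windows in all 4 lists had a mean of 17.3 CpG sites, and the members a mean of 16.7.

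Motif shares in these windows were set beside the same shares at like strength. The PU.1 pattern was in 33 windows of members (5.45%, interval 3.78% to 7.58%), against 3.62% in all 4 lists, 1.82% after weighting and 3.22% of all start sites. CRE was in 4 windows (0.661%, interval 0.180% to 1.68%), against 3.32%, 1.295% weighted and 1.80% of all. NRF1 (GCGCATGC) was in 10 (1.65%, interval 0.795% to 3.02%), against 5.45%, 2.86% and 2.72%. Both intervals hold the weighted value. CEBP (TTGCNNAA) was in 36 (5.95%, interval 4.202% to 8.14%), against 8.70%, 11.2% and 10.9%. NF-kB was in 5 (0.826%, interval 0.269% to 1.92%), against 1.08%, 2.04% and 1.12%. RUNX (TGTGGTT) was in 29 (4.79%, interval 3.23% to 6.81%), against 3.95%, 6.997% and 5.29%. For AP-1, paired GAA, the PU.1-IRF composite, STAT (TTCNNNGAA) and the CTCF core (AGGGGGC), the interval held the weighted value. The weighted values carry no interval and lean on the weaker windows of all 4 lists (median mi8 −log10 q 71.3, members 10.1).

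The patterns of the PRC1.6 DNA-binding subunits were searched in the same windows. The E-box CACGTG was in 54 windows (8.93%, interval 6.78% to 11.5%), against 10.5% in all 4 lists, 9.30% weighted and 7.20% of all start sites. The T-box pattern TCACACCT was in 4 (0.661%), against 0.677%, 0.426% weighted and 1.28% of all. The E2F pattern TTTCGCGC was in 1 (0.165%), against 0.715%, 0.443% weighted and 0.325% of all. With counts of 1 to 4 windows, the exact upper limits were 1.68% for the T-box and 0.917% for E2F.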

How the data were processed

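Open chromatin was measured in 4 vector conditions, each with 2 libraries and 1 deposited peak list. The submitters' processing notes name BWA, Picard, MACS2 and build mm10. Their versions, the thresholds, any read shifting and the way libraries were pooled and downsampled are not stated in the labels. The deposited score is a whole-number form of −log10 q. The deposited fold is the ratio of summit pileup to local background, and the deposited −log10 p and −log10 q state the summit's rise above it. Fold, −log10 p and −log10 q are the authors' values, used to describe, rank or filter peaks within a list.

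Peaks with several summits kept the highest, and touching peaks were merged (Python 3.11.15, pandas 2.3.3, numpy 2.4.6, scipy 1.17.1). Pileup and background were recovered from fold, as (pileup + 1) over (background + 1), and the Poisson −log10 p. Strength weighting used 20 bins of mi8 −log10 q (10 for promoters). Genes, 1000 bp end windows and promoters came from RefSeq GRCm38.p6, whose promoter table held no chromosome 18 entries. The steps were tested on simulated lists.

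Members and gene lists were chosen with earlier results of these data known. Of 350 list entries, 349 were found. Text names the 12 members and 30 genes with the highest weakest −log10 q, list genes with a member at an end, and the 10 genes holding most members. Chromosome Y and unplaced peaks were left out. No test was run, since no list has replicates.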

Additional observations from a re-analysis of the deposited data

How the results depend on the processing

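The share absent from LMP8 alone was recomputed in 5 alternatives, and not with the 250 and 1000 bp margins. It was below the OE share in 4 of them. Where peaks of HP109, LMP8 and mi8 had to reach −log10 q 10 with the OE list left whole, the OE share was 5.25% and the LMP8 share 15.98%, a setting that by its construction thins LMP8 and not OE. The OE share was 20.9% when an OE peak within 250 bp counted as present and 15.7% within 1000 bp. It was 15.2% at −log10 q 5 in the 3 lists, 20.3% at 5 in all 4 lists, 10.2% with equal list lengths and 22.6% with peaks up to 100 bp apart merged. Members numbered 15065 at 5, 3712 at 10 and 9026 with equal lengths.

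The share of members at a gene end was 8.13% and 7.08% with the 250 and 1000 bp margins, 8.48% and 7.76% at 5 and 10 in the 3 lists, 7.76% with equal lengths and 8.498% with merging. It was 5.36% with a 500 bp window and 17.8% with 2500 bp. Genes with a member at an end numbered 1276 with the 1000 bp margin, 1334 and 307 at 5 and 10, 739 with equal lengths, 1441 with the 500 bp window and 4615 with 2500 bp. Of the 12 named regions, 8 stayed members with the 1000 bp margin and 12 otherwise. Of the 30 named genes, 19 stayed with that margin, 21 with the 500 bp window and 30 otherwise. The cuts at 5 and 10 could not remove either set, since both were picked for strength. Their weakest −log10 q values were at least 31.2 for the regions and 19.7 for the genes. Equal lengths also keep the strongest peaks. Of the 60 list genes, 8 stayed at −log10 q 10 and 15 with equal lengths. The sign of the difference from the matched share was the same in 7 of 7 alternatives for 6 lists: cytokines, macrophage and granulocyte markers (above), and glycolysis, erythroid and ubiquitous genes (below). The other 11 lists kept their side in 3 to 6 of the 7.

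No paired analysis was possible because each deposited list stands for both libraries of a vector, so replicate numbers cannot be matched across lists. Weak members limit the set: a summit near the calling limit can be present or absent by counting noise alone, and single cultures cannot be seen.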
